A study of Mus musculus with 24 samples.

Results

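The 10 genes described here encode 8 subunits of the GABA-A receptor, the chloride channel that GABA opens, and both transporters that set the chloride gradient of a neuron. The members are the alpha subunits Gabra2, Gabra3, Gabra4 and Gabra5, the beta subunits Gabrb1 and Gabrb2, the gamma subunits Gabrg1 and Gabrg3, and the cation-chloride cotransporters Slc12a2 (NKCC1) and Slc12a5 (KCC2). They were taken by annotated symbol, as 10 of the 18193 genes and 30 of the 34945 probe sets with a single symbol. The list was chosen with earlier results of these data known. Each gene is described by its brightest probe set over the 24 arrays. Values of other probe sets are given beside the main results and are named as such.

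Expression was measured on Affymetrix mouse genome arrays in 2 thalamic nuclei of wild-type C57BL/6 mice, namely the ventrobasal complex (VB), the relay for touch, which the study also calls VPM, and the dorsal lateral geniculate nucleus (dLGN), the relay for vision. In each litter, part of the embryos had both eyes cauterized at embryonic day 14.5 (embBE), and intact embryos served as control. The nuclei were dissected on the day of birth (P0) or at P4. The main enucleation tests did not pair embBE and control arrays by litter. Each sample pooled tissue of pups that shared a litter and a condition, and it was hybridized to 1 array. All groups held 3 arrays except dLGN at P0, with 2 control and 4 embBE arrays. The p-values measure the spread between such pools. In dissected tissue, fewer cells of a type and less RNA per cell cannot be told apart.

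A GABA-A receptor is a ring of subunits, most often alpha, beta and gamma, and the alpha subunit largely sets how fast and how sensitively the channel responds. In maturing thalamic relay neurons, receptors with the alpha 4 and delta subunits come to sit outside synapses and carry a steady current, whereas the alpha 2, alpha 3 and alpha 5 subunits are typical of young neurons in many brain areas. NKCC1 brings chloride into the cell and KCC2 takes it out. In young neurons with much NKCC1 and little KCC2, GABA depolarizes the membrane, and it turns inhibitory as KCC2 comes to dominate.

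The promoters of Gabra4 and Gabrb2 are shown because these were the members with the clearest differences between the nuclei. In the RefSeq table of build GRCm38.p6, 9 of the 10 members had a promoter window, counted here as the 250 bases before an annotated start. The Gabra4 window is chr5:71658309-71658558 on the minus strand, and the first listed Gabrb2 window is chr11:42420190-42420439 on the plus strand. Both are written 5′ to 3′ in the direction of transcription, and capitals mark the GC box, CCAAT box or TATA box.
Gabra4: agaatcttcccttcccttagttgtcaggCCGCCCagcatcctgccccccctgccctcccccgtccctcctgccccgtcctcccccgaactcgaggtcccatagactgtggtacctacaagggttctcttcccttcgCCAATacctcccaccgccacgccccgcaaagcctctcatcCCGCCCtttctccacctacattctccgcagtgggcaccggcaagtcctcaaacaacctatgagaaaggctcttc
Gabrb2: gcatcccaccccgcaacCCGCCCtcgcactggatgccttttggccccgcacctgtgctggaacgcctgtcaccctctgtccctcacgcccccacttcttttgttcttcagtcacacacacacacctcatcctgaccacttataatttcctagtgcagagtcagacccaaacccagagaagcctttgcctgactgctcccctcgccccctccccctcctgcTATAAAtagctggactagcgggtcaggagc
The windows were searched on both strands for GGGCGG, known as the GC box. The search also took in the CCAAT box, spelled by its name, and the TATA box, searched as TATAAA. Further patterns were the E-box with the letters CACGTG, the cyclic AMP response element as TGACGTCA, the EGR site as GCGTGGGCG and the nuclear receptor site as AGGTCA. None of these patterns can contain another, though their matches may overlap. A member can have several windows, and the 9 members had 14. The GC box was in 5 of these 14 windows (35.7%), from 5 members, and in 32.7% of the 32851 windows of all genes. CCAAT was in 8 of the 14 (57.1%), from 7 members, and in 33.8% of all windows. TATAAA was in 3 of the 14 (21.4%), in overlapping windows of Gabra3 and in that of Gabrb2 printed above, where its first base is at -30 from the start, and in 12.4% of all windows. CACGTG was in 1 of the 14 (7.14%), from Slc12a5, and in 6.02% of all windows. TGACGTCA, GCGTGGGCG and AGGTCA had 0 matches in the members, against 1.55%, 0.536% and 14% of all windows. The GC content was 61.2% in the Gabra4 window and 58.8% in the Gabrb2 window. Gabrg1, Gabra2, Gabra4 and Gabrb1 lie in this order on chromosome 5, each within 2 places of the next among protein-coding genes. The start of Gabra4 lies 387 bases from the first listed start of Gabrb1 on the opposite strand. Gabrg3 and Gabra5 lie within 2 such places of each other on chromosome 7.

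The labelled tissue was checked against cell type markers. All 8 markers of thalamic relay neurons were measured, and their mean log2 signal lay between 8.80 and 9.42 in the 8 groups. The astrocyte and radial glia list of 8 genes went in mean from 9.88 at P0 to 10.84 at P4 in control VB and from 10.06 to 10.62 in control dLGN. Of the 9 markers of GABAergic neurons of neighbouring nuclei, 8 were measured, with group means of 5.51 to 6.05 in VB and 6.00 to 6.34 in dLGN. On single control VB arrays at P0 the mean of this list ran from 5.40 to 6.96. Gad1, the widest-ranging of these markers, had group means at P0 of 6.36 in control and 4.60 in embBE VB. In dLGN at P0 its group means were 8.40 in control and 6.84 in embBE. The log2 signal of the 3′ actin probe set minus that of the 5′ one, a measure of RNA integrity and of labelling length (the actin gap), ranged from 1.95 to 4.29 (mean 2.51) on VB arrays and from 2.21 to 4.27 (mean 3.61) on dLGN arrays, so it moved with the nucleus. A set of 6 arrays had the lowest standard deviation over all probe sets, namely VB control 35_1 at P0 and 36_3 at P4, dLGN embBE 35_3 and 39_3 at P0, dLGN control 40_1 at P4 and dLGN embBE 36_2 at P4 (the paired numbers are those of the labels). For the members that passed a test or came close to it, values without these 6 arrays are given beside the others.

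**Figure D1:**
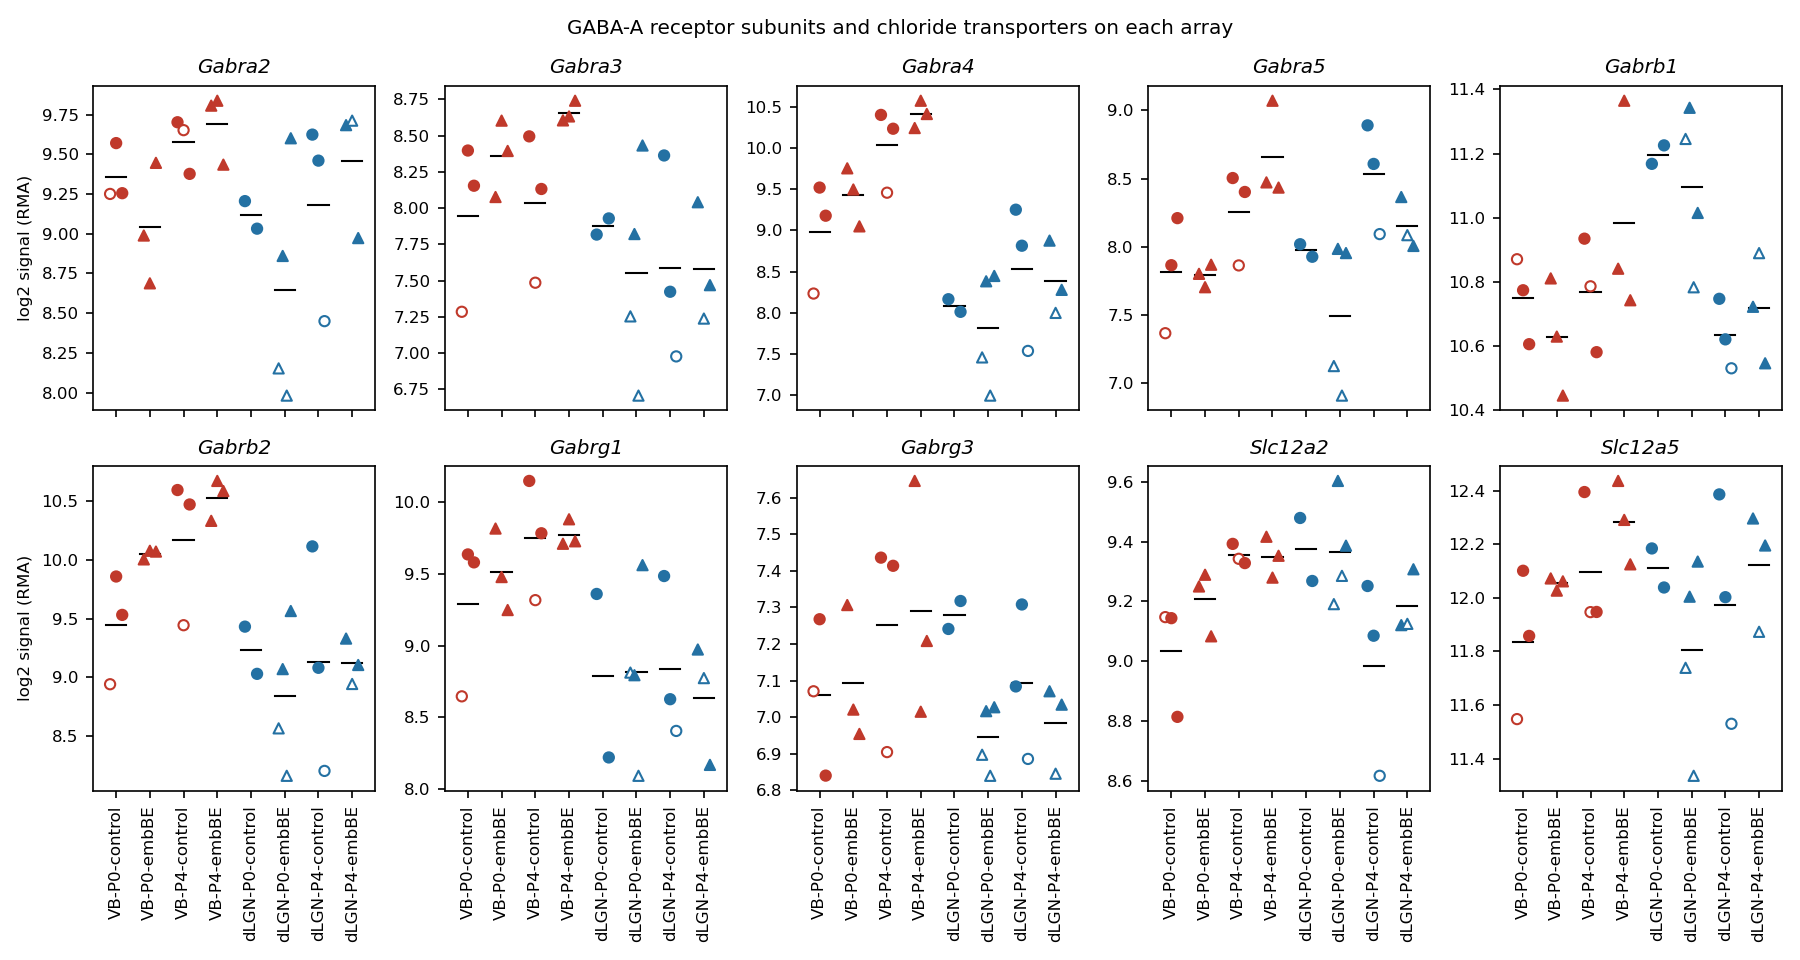
Log2 signal of the brightest probe set of each of the 10 members on each of the 24 arrays (vertical axis), by the 8 groups of nucleus, age and condition (horizontal axis). Red marks VB and blue dLGN, circles control and triangles embBE, open symbols the 6 arrays of lowest standard deviation, and bars the group means. For Gabra4 every VB group lies above every dLGN group in mean, whereas Gabrb1 is highest in dLGN at P0.

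Gabra4 was the member that differed most between the nuclei. At P4 its log2 signal was 10.40, 9.46 and 10.23 on the control VB arrays and 10.24, 10.57 and 10.41 on the embBE VB arrays. In dLGN at P4 it was 9.25, 8.81 and 7.54 in control and 8.88, 8.0 and 8.28 in embBE. Each VB array at P4 was above each dLGN array at P4. At P0 the control VB arrays stood at 8.23, 9.52 and 9.18 and the embBE VB arrays at 9.75, 9.50 and 9.05. The dLGN arrays at P0 stood at 8.16 and 8.01 in control and at 8.38, 6.99, 8.45 and 7.46 in embBE. The groups of the same condition thus did not overlap between the nuclei at either age, although the lowest control VB array at P0 (8.23) was below the highest embBE dLGN array (8.45). By group mean the order ran from embBE VB at P4 (10.41 ± 0.17, SD, n = 3), control VB at P4 (10.03 ± 0.50), embBE VB at P0 (9.43 ± 0.36) and control VB at P0 (8.98 ± 0.67) down to the dLGN groups, with control at P4 at 8.53 ± 0.89, embBE at P4 at 8.38 ± 0.45, control at P0 at 8.09 ± 0.11 and embBE at P0 at 7.82 ± 0.71 (n = 4). Neighbours in this order overlapped.

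The difference VB minus dLGN was tested with limma over all genes, with Benjamini-Hochberg adjustment and arrays that shared both label numbers treated as a random block. In embBE mice Gabra4 was higher in VB by 1.61 log2 units at P0 (SE 0.40, adjusted p = 0.0178) and by 2.03 at P4 (SE 0.42, adjusted p = 0.00588). In control mice the differences were 0.89 at P0 (SE 0.47, adjusted p = 0.633) and 1.5 at P4 (SE 0.42, adjusted p = 0.0594), which did not pass. Control and embBE were also averaged, a comparison added after the data were seen. Gabra4 was then higher in VB by 1.25 at P0 (SE 0.31, adjusted p = 0.0133) and by 1.76 at P4 (SE 0.30, adjusted p = 0.000405). The dimmer second probe set of Gabra4, 1429330_at, gave 0.48 at P0 (SE 0.12, adjusted p = 0.0187) and 0.44 at P4 (SE 0.12, adjusted p = 0.0166) for the same averages, adjusted over all probe sets.

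The size of the Gabra4 difference moved with array quality. Without the 6 arrays of low standard deviation it was 1.26 and 1.0 at P0 and 1.28 and 1.82 at P4 in control and embBE, and all 4 values passed. With the actin gap as a covariate it was 0.57 and 0.80 at P0 and 0.95 and 0.94 at P4, and no value passed (adjusted p from 0.122 to 0.338). The averages over both conditions were then 0.69 at P0 (adjusted p = 0.104) and 0.95 at P4 (adjusted p = 0.0508). The embBE difference at P0 also no longer passed without any of 4 arrays, at 1.34 without dLGN 39_3, 1.49 without dLGN 35_3, 1.45 without VB 35_3 and 1.58 without VB 39_3. The average at P0 was 1.21 without dLGN control 39_5 (adjusted p = 0.0762). The part of the actin gap in these differences was not tested beyond this covariate.

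**Figure D2:**
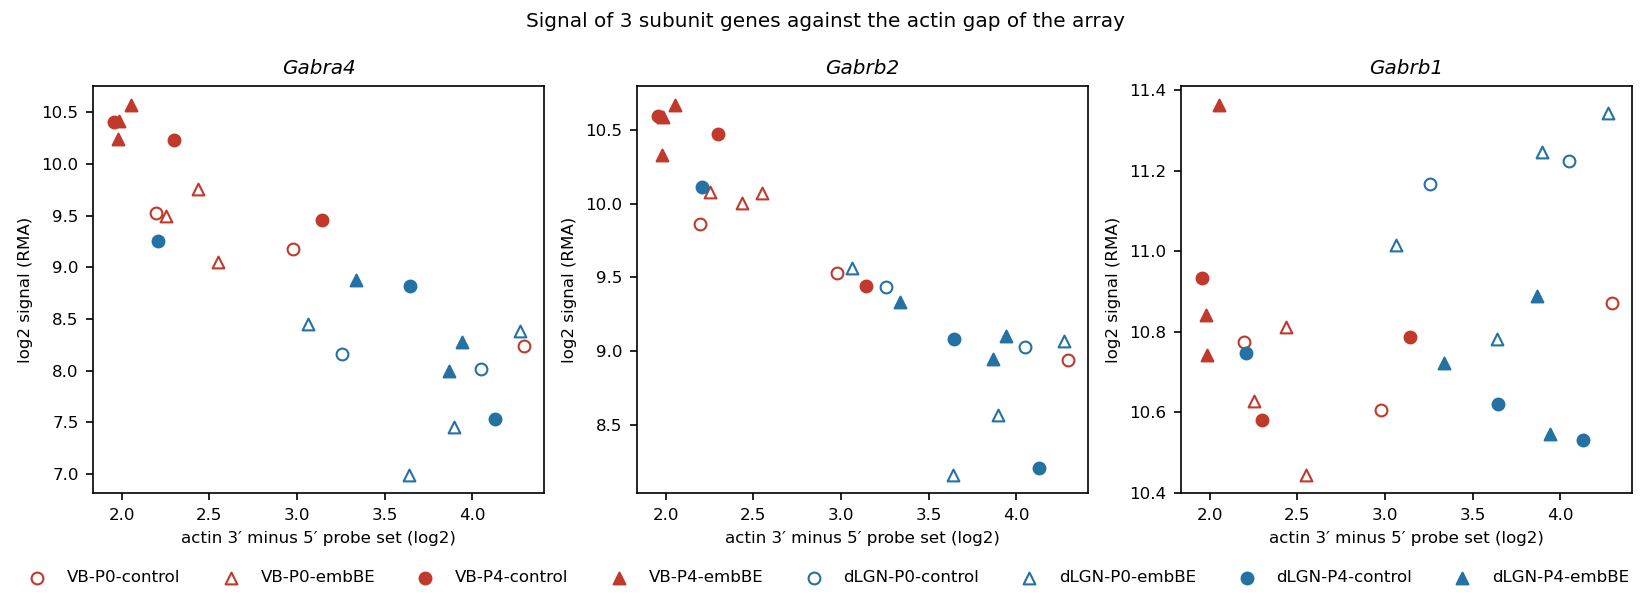
Log2 signal of Gabra4, Gabrb2 and Gabrb1 (vertical axes) against the actin gap in log2 units, the 3′ minus the 5′ signal (horizontal axis) on 24 arrays, with VB in red, dLGN in blue, P0 open and P4 filled. Most dLGN arrays have gaps above those of most VB arrays, and Gabra4 and Gabrb2 run lower on arrays with a wide gap.

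Gabrb2, the beta subunit that pairs with alpha 4 in mature relay neurons, followed the same order of nuclei. At P4 it stood at 10.60, 9.44 and 10.47 in control VB and 10.33, 10.68 and 10.59 in embBE VB, against 10.12, 9.08 and 8.20 in control dLGN and 9.33, 8.94 and 9.11 in embBE dLGN. The embBE groups did not overlap at P4, while the control groups did. At P0 the embBE VB arrays (10.01, 10.08 and 10.07) were all above the embBE dLGN arrays (9.07, 8.16, 9.57 and 8.57), and the control VB arrays (8.94, 9.86 and 9.53) overlapped with the control dLGN arrays (9.43 and 9.03). VB exceeded dLGN in embBE by 1.21 at P0 (SE 0.37, adjusted p = 0.0479) and by 1.41 at P4 (SE 0.39, adjusted p = 0.0323). In control the differences were 0.22 at P0 and 1.04 at P4 (adjusted p = 0.212 at P4). Averaged over conditions the difference at P4 was 1.22 (SE 0.28, adjusted p = 0.00501). The probe set 1428203_at gave 1.17 for this average (SE 0.29, adjusted p = 0.0111), whereas in embBE 1428204_at and 1428205_x_at differed by 0.03 to 0.16 over both ages and 1450319_at by -0.02 at P0 and -0.10 at P4. With the actin gap as a covariate the Gabrb2 differences in embBE were 0.35 at P0 and 0.27 at P4 (adjusted p = 0.661 and 0.831), and with the standard deviation of the array as a covariate they were 0.50 and 0.49 and passed. Without the 6 arrays they were 0.73 at P0 (adjusted p = 0.0707) and 1.31 at P4 (adjusted p = 0.00109). The call at P0 was lost without any 1 array except dLGN 39_4, and the call at P4 without dLGN 36_2 (1.32), dLGN 40_3 (1.40) or any of the VB arrays (1.34 to 1.5).

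Gabrg1, a gamma subunit with weak benzodiazepine sensitivity, was 9.71, 9.88 and 9.73 in embBE VB at P4 and 8.97, 8.77 and 8.17 in embBE dLGN at P4, with no overlap. Its log2 difference was 1.14 in embBE at P4 (SE 0.37, adjusted p = 0.0567), 0.91 in control at P4 (SE 0.37, adjusted p = 0.262) and 1.02 in the average of both (SE 0.26, adjusted p = 0.0109). The average was 0.89 without VB control 24_2 (adjusted p = 0.0721) and 0.23 with the actin gap as a covariate, and without the 6 arrays of low standard deviation it was 1.05 (adjusted p = 0.00474). Its dimmer probe set 1427227_at gave 1.20 for this average (SE 0.23, adjusted p = 0.00142). Gabra3 showed a like pattern by level, with embBE VB arrays at P4 of 8.60, 8.63 and 8.74 above the embBE dLGN arrays of 8.04, 7.24 and 7.47, and its difference of 1.08 did not pass (SE 0.39, adjusted p = 0.078). Without the 6 arrays the Gabra3 difference was 0.91 and passed (adjusted p = 0.0135). The other Gabra3 probe set, 1421263_at, differed by 0.10 in the same comparison (SE 0.18, adjusted p = 0.698).

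Gabrb1 ran the other way at P0. It was 11.17 and 11.23 in control dLGN and 11.34, 10.78, 11.01 and 11.25 in embBE dLGN, against 10.87, 10.77 and 10.61 in control VB and 10.81, 10.63 and 10.45 in embBE VB. The control groups did not overlap and the embBE groups overlapped through 1 dLGN array. The difference VB minus dLGN at P0 was -0.45 in control (adjusted p = 0.400) and -0.47 in embBE (SE 0.15, adjusted p = 0.0631), and -0.46 in the average of both (SE 0.12, adjusted p = 0.0208). With the actin gap as a covariate the average was -0.43 (adjusted p = 0.0471). The call of the average was lost without dLGN control 35_1, dLGN control 39_5, VB embBE 39_4 or VB control 39_5. The average was -0.53 without the 6 arrays of low standard deviation (adjusted p = 0.00787). Its probe sets 1435095_at and 1443205_at gave averages of -0.42 and -0.39 at P0 (adjusted p = 0.226 and 0.484).

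Over the comparison of nuclei, 0 of the 10 members passed the adjusted threshold of 0.05 in control mice at P0, where 1.56% of all genes passed. None passed in control mice at P4 either, where 3.22% of all genes passed. At an unadjusted p under 0.05 there were 2 members at P0 and 4 at P4 in control mice, beside 1655 and 2404 of the 18193 genes. In embBE mice Gabra4 and Gabrb2 passed at both ages, where 7.48% of all genes passed at P0 and 8.43% at P4. In the averages over both conditions 2 members passed at P0 against 7.67% of all genes, and 3 passed at P4 against 19.3% of all genes. The members' median difference was -0.04 in control at P0, 0.38 in control at P4, 0.34 in embBE at P0 and 0.41 in embBE at P4, beside medians over all genes of 0.03, -0.03, -0.06 and -0.09. These comparisons share arrays with those between ages and between conditions.

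**Figure D3:**
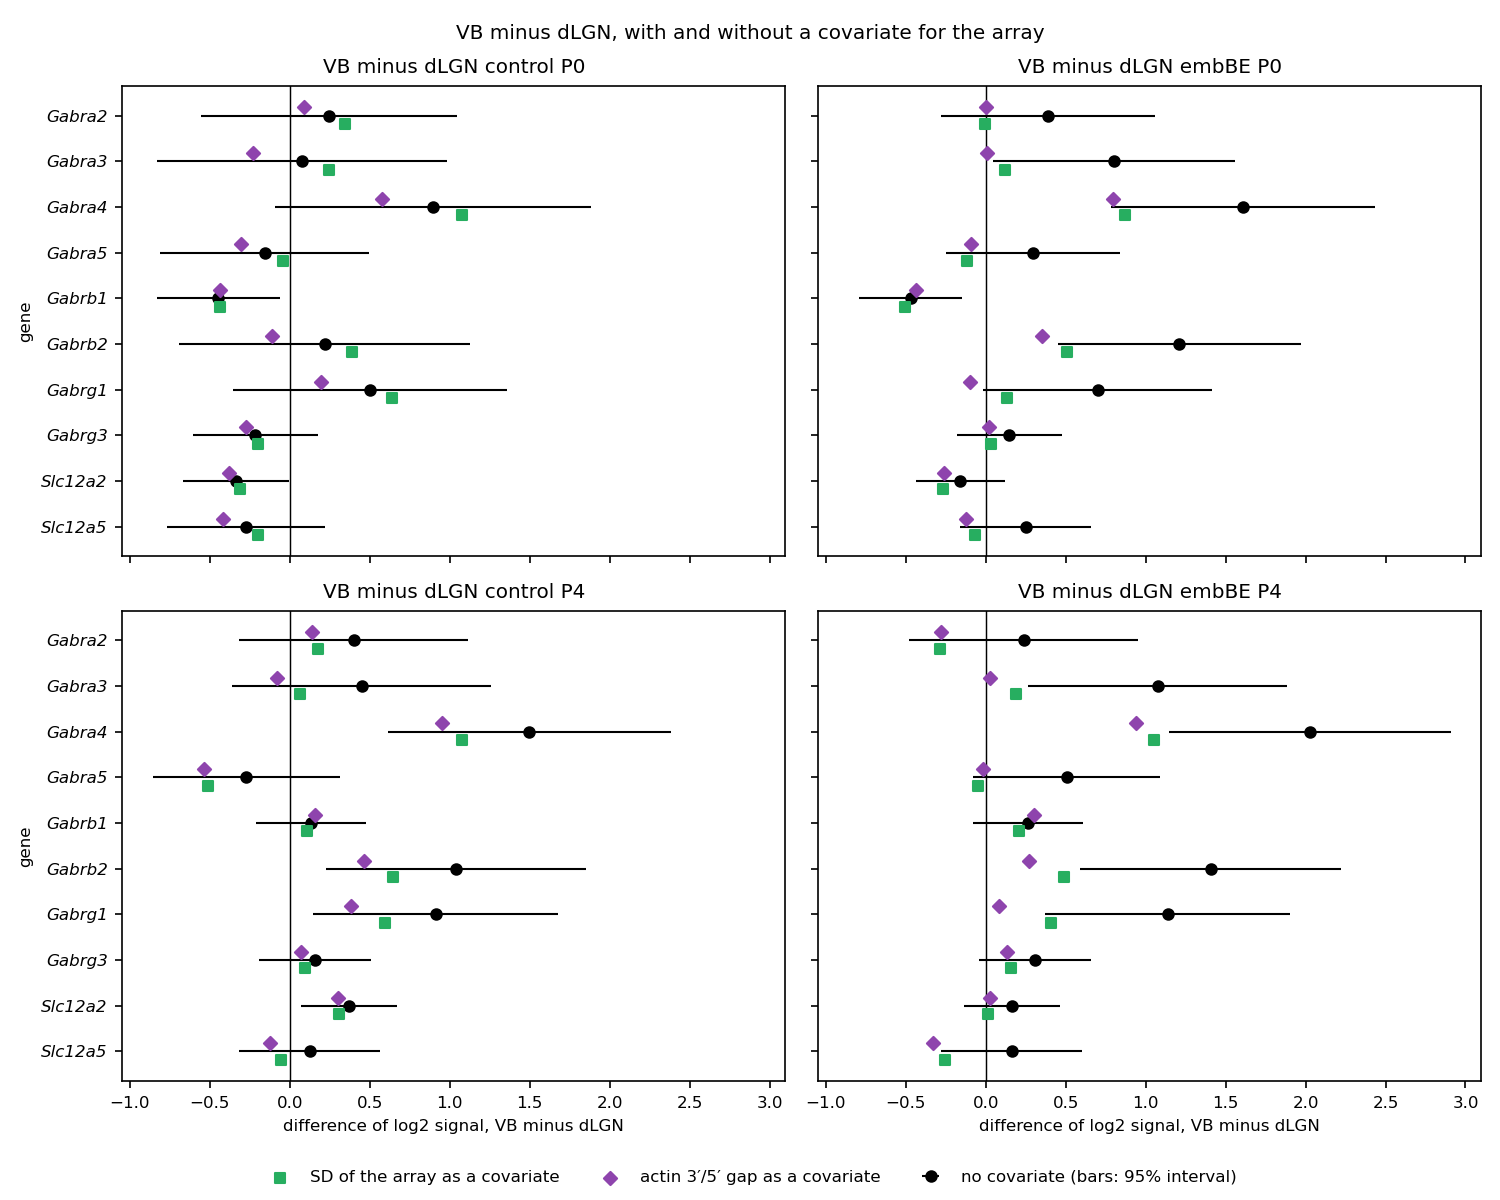
Difference in log2 signal between VB and dLGN (horizontal axis, positive where VB is higher) for the 10 members in 4 panels, control and embBE at P0 and P4. Black points with bars are the limma estimates with 95% intervals, green squares the estimates with the standard deviation of the array as a covariate and purple diamonds those with the actin gap as a covariate; Gabra4 is above 0 in each panel and under each covariate.

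Between P0 and P4, 3 of the alpha subunits of VB rose in the averages over conditions. Gabra4 rose in VB by 1.02 log2 units in the average of control and embBE (SE 0.22, 95% interval 0.54 to 1.5, adjusted p = 0.0101), a comparison added after the data were seen. The change was 1.05 in control (SE 0.31, adjusted p = 0.0854) and 0.98 in embBE (SE 0.31, adjusted p = 0.122), which did not pass alone. The embBE arrays did not overlap between the ages, and the control arrays did. Across all 24 alternatives run for the average, Gabra4 kept its call with values of 0.62 to 1.16. It was 0.97 without the 6 arrays of low standard deviation. Its second probe set gave 0.22 for this average (adjusted p = 0.186).

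Gabra5, the subunit of extrasynaptic receptors of hippocampal neurons, stood in embBE VB at 7.80, 7.70 and 7.87 at P0 and at 8.47, 9.07 and 8.43 at P4, with no overlap. In control VB it stood at 7.37, 7.87 and 8.21 at P0 and at 8.50, 7.86 and 8.40 at P4, with overlap. The change was 0.87 in embBE (SE 0.23, adjusted p = 0.0604) and 0.65 in the average (SE 0.16, adjusted p = 0.0197). The average no longer passed without embBE 39_3 at P0 (0.63), control 24_2 at P4 (0.59) or control 40_1 at P4 (0.62). In dLGN it stood at 8.02 and 7.93 in control at P0 and at 8.89, 8.61 and 8.09 in control at P4. The embBE dLGN arrays stood at 7.98, 6.91, 7.95 and 7.13 at P0 and at 8.36, 8.09 and 8.01 at P4. The ages did not overlap in dLGN in either condition, but the changes of 0.56 and 0.66 did not pass (SE 0.27 in embBE, adjusted p = 0.348), nor did their average of 0.61 (adjusted p = 0.135). The averages of Gabra5 without the 6 arrays of low standard deviation were 0.64 in VB (adjusted p = 0.00275) and 0.50 in dLGN (adjusted p = 0.0471), so that the dLGN average then passed. Gabra5 was represented by a single probe set.

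Gabra2, an alpha subunit of young forebrain neurons, changed by 0.43 in the VB average (SE 0.13, adjusted p = 0.0461), a call that was lost in 16 of 24 alternatives, among them that without the 6 arrays of low standard deviation (0.39, adjusted p = 0.0641). The Gabra2 probe sets 1421738_at and 1443865_at gave 0.44 and 0.55 for this average (adjusted p = 0.333 and 0.0977). Its embBE VB arrays went from 8.99, 8.69 and 9.45 at P0 to 9.81, 9.84 and 9.43 at P4, with overlap. Gabrb2 changed by 0.60 in the VB average and did not pass (adjusted p = 0.0595), and without the 6 arrays it was 0.66 and passed (adjusted p = 0.000259).

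In dLGN, Gabrb1 fell by its brightest probe set. It went from the 11.17 and 11.23 of control at P0 to 10.75, 10.62 and 10.53 at P4, with no overlap, and from the 4 embBE values between 10.78 and 11.34 to 10.72, 10.89 and 10.55, with overlap. The average over conditions fell by 0.47 (SE 0.11, adjusted p = 0.0367), with -0.56 in control (SE 0.17, adjusted p = 0.252) and -0.38 in embBE (SE 0.15, adjusted p = 0.311). The call was lost in 10 of 24 alternatives, which ranged from -0.56 to -0.29, among them those without dLGN embBE 39_2 or 35_3 at P0, control 35_1 or 39_5 at P0, embBE 24_4 or 40_3 at P4 and control 36_3 or 40_1 at P4. Without the 6 arrays of low standard deviation it was -0.53 (adjusted p = 0.03). The Gabrb1 probe sets 1435095_at and 1443205_at gave -0.44 and -0.16 for this average (adjusted p = 0.301 and 0.857). In VB the arrays of the brightest Gabrb1 set stayed between 10.45 and 11.36. The VB group means of 1443205_at went from 6.65 at P0 to 7.32 at P4 in control and from 6.71 to 7.58 in embBE. Those of 1435095_at went from 8.20 to 8.43 and from 8.31 to 8.57. By the brightest set, the age change of Gabrb1 differed between VB and dLGN by 0.66 (SE 0.17, adjusted p = 0.111), which did not pass.

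In each nucleus and condition alone, 0 of the 10 members passed the adjusted threshold for P4 minus P0, where 3.78% of all genes passed in control VB, 3.42% in embBE VB, 0.561% in control dLGN and 1.02% in embBE dLGN. At an unadjusted p under 0.05 there were 3, 3, 1 and 2 members, beside 3481, 3083, 1752 and 2127 of the 18193 genes. By their brightest probe sets, 3 members passed in the averages over conditions in VB against 13.4% of all genes and 1 in dLGN against 4.72%. All 10 members lay above 0 in control VB and in embBE VB, where 44.5% and 41.8% of all genes did. Their medians were 0.29 and 0.33 beside -0.03 and -0.04 over all genes. In dLGN 4 members lay above 0 in control and 7 in embBE, where 56.1% and 51.4% of all genes did. Their medians there were -0.12 and 0.16 beside 0.04 and 0.01. The members' brightest sets lay at percentiles 64.9 to 98.0 of mean signal, whereas all genes include dim ones. The mean standard deviation of the arrays went from 2.31 at P0 to 2.35 at P4 in control VB. In embBE VB it went from 2.36 to 2.40, and its part in these medians was not tested. The difference of the age change between VB and dLGN passed for 0 members in control, in embBE and in their average, where 0.022%, 0.055% and 0.269% of all genes passed. Here 2, 1 and 2 members had an unadjusted p under 0.05, beside 1249, 895 and 2139 of the 18193 genes. Broad neuronal markers (5 of 5 measured) went from a mean of 11.64 to 11.99 in control VB and from 11.69 to 11.74 in control dLGN, and the mean actin gap from 3.16 to 2.46 and from 3.65 to 3.33. The part of the neuronal markers in the age changes was not tested. With the actin gap as a covariate, Gabra4 passed in control VB, and Gabra4 and Gabra5 passed in embBE VB.

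**Figure D4:**
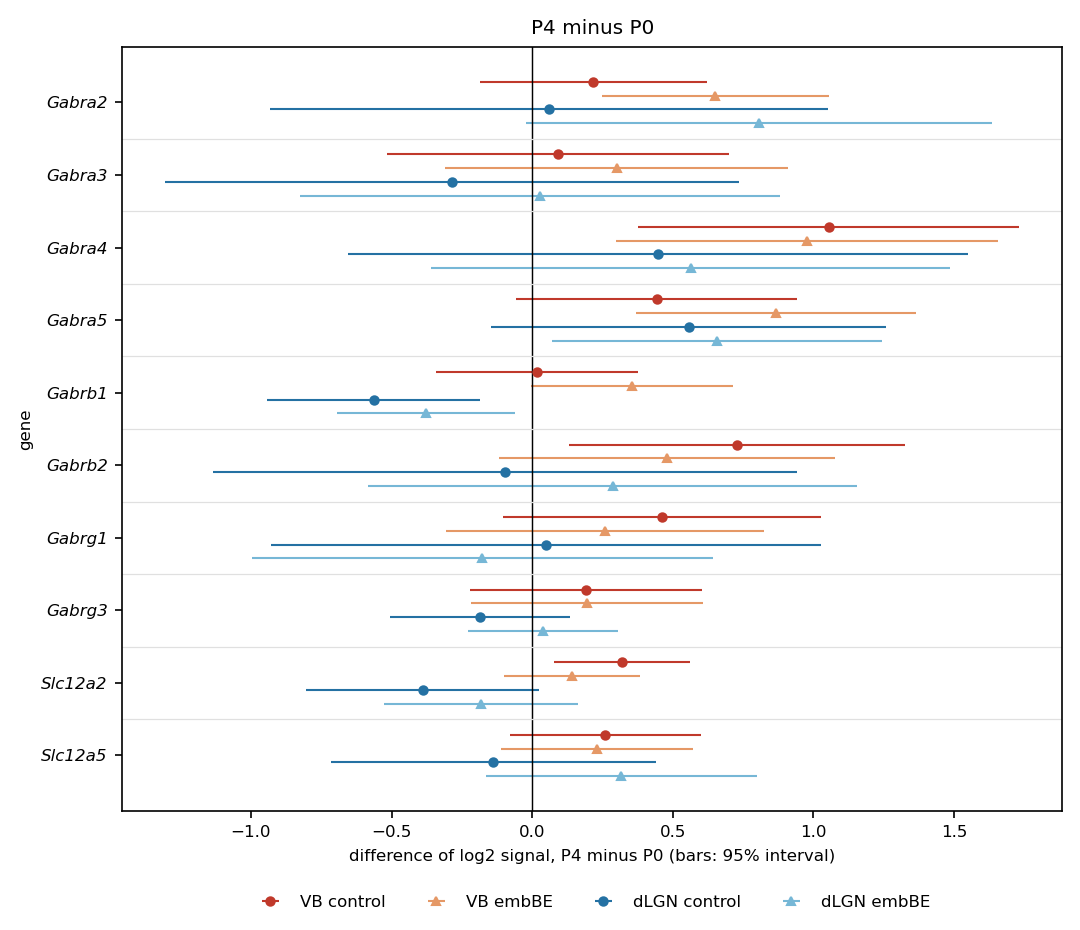
Difference in log2 signal between P4 and P0 (horizontal axis, positive where P4 is higher) for the 10 members in control and embBE mice of each nucleus, with 95% intervals from limma. All points of VB lie above 0, and Gabrb1 lies below 0 in dLGN.

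The transporters were next compared between ages. Slc12a5 (KCC2), the chloride exporter, was bright on all arrays, from 11.34 to 12.44. It went in VB from 11.55, 12.10 and 11.86 to 12.39, 11.95 and 11.95 in control, with overlap, and from 12.07, 12.03 and 12.06 to 12.44, 12.29 and 12.12 in embBE, with no overlap. The VB average was 0.25 (unadjusted p = 0.0462, adjusted p = 0.164). In dLGN the group means were 12.11 and 11.97 in control and 11.80 and 12.12 in embBE, at P0 and P4. The dim second probe set of Slc12a5, 1425337_at, gave averages of -0.08 in VB (adjusted p = 0.722) and 0.19 in dLGN (adjusted p = 0.479).

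Slc12a2 (NKCC1), the chloride importer, gave values that depended on the probe set. By the brightest set, 1417622_at, it went in control VB from 9.15, 9.14 and 8.81 to 9.39, 9.34 and 9.33, with no overlap (0.32, SE 0.11, adjusted p = 0.139). In control dLGN it went from 9.48 and 9.27 to 9.25, 9.09 and 8.62 (-0.39, adjusted p = 0.558). The averages over conditions were 0.23 in VB (adjusted p = 0.0736) and -0.29 in dLGN (adjusted p = 0.249), and their difference of 0.52 did not pass (SE 0.15, adjusted p = 0.160). By the set 1417623_at the average fell by 1.18 in dLGN (SE 0.22, adjusted p = 0.0121) and was -0.85 in VB (adjusted p = 0.162), so that both sets lay below 0 in dLGN and on opposite sides of 0 in VB. By the dim set 1448780_at it fell by 0.89 in dLGN (SE 0.21, adjusted p = 0.0363) and was 0.36 in VB (adjusted p = 0.146). The 1417623_at values of the dLGN arrays at P0 lay between 8.17 and 8.52 and those at P4 between 6.15 and 7.95, with no overlap.

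Embryonic enucleation was then compared with control within each nucleus and age, to see which genes differ in the thalamus when retinal input is absent from before birth. A gene counted here when it met the threshold of the study, a fold of at least 1.5 with an unadjusted p under 0.05. In VB at P0, 1 of 10 members met it, Gabrb2, where 0.731% of all genes did. Its embBE arrays of 10.01, 10.08 and 10.07 did not overlap with the control arrays of 8.94, 9.86 and 9.53, for a difference of 0.61 (SE 0.28, 95% interval 0.01 to 1.21, unadjusted p = 0.0468, adjusted p = 0.678). The Gabrb2 probe sets 1428203_at, 1428204_at, 1428205_x_at and 1450319_at differed by 0.67, 0.01, 0.12 and -0.16 here. Without control 35_1, an array of low standard deviation and the widest VB actin gap (4.29), it was 0.36, and without control 39_5 or any 1 embBE array it was 0.59 to 0.65 and no longer met the threshold. The mean actin gap was 3.16 in control and 2.41 in embBE, and its part in the difference was not tested beyond the covariate, under which Gabrb2 did not meet the threshold.

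In VB at P4, 1 of 10 members met the threshold, Gabra3, where 0.159% of all genes did. Its embBE arrays of 8.60, 8.63 and 8.74 did not overlap with the control arrays of 8.49, 7.49 and 8.13, for a difference of 0.62 (SE 0.28, 95% interval 0.01 to 1.23, unadjusted p = 0.0462, adjusted p = 0.751). The other Gabra3 probe set, 1421263_at, differed by 0.02 in the same comparison (SE 0.14, adjusted p = 0.963). Without control 36_3 it was 0.35, and without control 40_1 (0.67) or any 1 embBE array (0.58 to 0.65) it no longer met the threshold. The call of Gabrb2 at P0 was lost in 16 of 20 alternatives and that of Gabra3 at P4 in 15 of 20.

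In dLGN, 0 members met the threshold at P0, where 0.445% of all genes did, and 0 at P4, where 0.198% did. By the methods' t-test with its fold there were 0 at either age. In limma 1 and 0 members had an unadjusted p under 0.05 at P0 and P4, beside 434 and 236 of the 18193 genes. The member at P0 was Gabrg3, a gamma subunit of few neurons, with 7.24 and 7.32 in control and 7.02, 6.84, 7.03 and 6.90 in embBE, and a difference of -0.33 (SE 0.14, 95% interval -0.64 to -0.03, unadjusted p = 0.0336, adjusted p = 0.851). Its other probe sets did not share its pattern over the 8 group means (Pearson r from -0.71 to 0.44). Gabra5 in dLGN differed by -0.48 at P0 (95% interval -1.15 to 0.19) and by -0.38 at P4 (-1.01 to 0.25).

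The transporters did not meet the threshold in any of the 4 comparisons. Slc12a2 differed by 0.17 in VB at P0 (95% interval -0.07 to 0.41), by 0.00 in VB at P4 (-0.25 to 0.24), by -0.01 in dLGN at P0 (-0.40 to 0.39) and by 0.20 in dLGN at P4 (-0.17 to 0.57). Slc12a5 differed by 0.22 (-0.12 to 0.56), 0.19 (-0.15 to 0.53), -0.31 (-0.86 to 0.24) and 0.15 (-0.37 to 0.67) in the same order. These intervals, of the brightest probe set of each transporter, leave out a change of 1 log2 unit in either direction. The Slc12a2 sets 1417623_at and 1448780_at differed by -0.50 to 0.46 and by -0.31 to 0.37 over the 4 comparisons and did not pass. The dim Slc12a5 set 1425337_at differed by -0.14, -0.14, -0.03 and 0.06 in the same order.

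By the adjusted p, 0 of 18193 genes and so 0 members passed in each of the 4 comparisons (limma, 0% of all genes), with 1220, 724, 434 and 236 genes at an unadjusted p under 0.05 in VB at P0 and P4 and dLGN at P0 and P4. The members' medians in this order were 0.20, 0.20, -0.31 and -0.01, beside -0.03, -0.02, 0.03 and 0.01 over all genes. In the same order 7, 9, 1 and 4 members lay above 0, beside 44.4%, 45.7%, 54.7% and 51.5% of all genes. The effect of enucleation did not pass as different between the ages or between the nuclei for any member, in limma contrasts that 0% of all genes passed and in which 0 members had an unadjusted p under 0.05. At that unadjusted p there were 295 and 143 genes between the ages in VB and dLGN. Between the nuclei there were 1066 at P0 and 374 at P4. For Gabrb2 the difference was 0.99 between VB and dLGN at P0 (SE 0.57, adjusted p = 0.551).

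**Figure D5:**
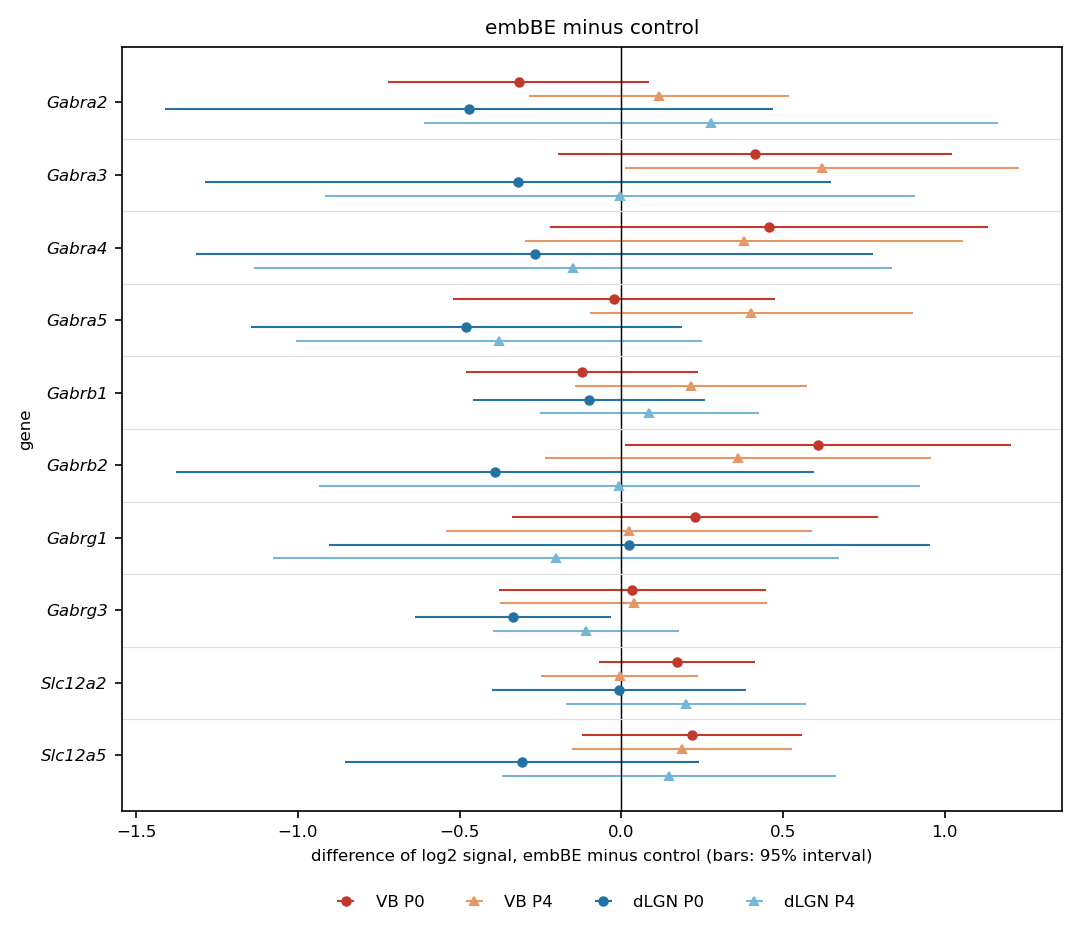
Difference in log2 signal between embBE and control (horizontal axis, positive where embBE is higher) for the 10 members in VB and dLGN at P0 and P4, with 95% intervals from limma. Gabrb2 in VB at P0 and Gabra3 in VB at P4 are the points with a fold of at least 1.5 whose interval leaves out 0.

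The members were also set beside each other by their 8 group means, as a description. Gabra4, Gabrb2 and Gabrg1 had the most similar patterns (Pearson r of 0.97 for Gabra4 and Gabrb2, 0.95 for Gabra4 and Gabrg1 and 0.94 for Gabrb2 and Gabrg1), followed by Gabra3 and Gabrb2 (0.93). Gabra4 and Gabrb1, whose starts are 387 bases apart, had the lowest value (-0.30). The points share arrays and therefore array quality. The probe sets of a gene agreed for Gabra4 (r of 0.95) and Gabrg1 (0.98) and did not for Gabra3 (0.05) and Slc12a5 (-0.27).

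Of 29 other genes of GABA and glycine signalling and chloride transport, 25 were measured. None met the threshold of the study for enucleation in any of the 4 comparisons. Between P0 and P4, 2 rose in control VB and 3 rose and 1 fell in embBE VB, and none passed in control or embBE dLGN, beside 3.78%, 3.42%, 0.561% and 1.02% of all genes. Slc6a11, the GABA transporter of astrocytes, rose in control VB by 1.13 (SE 0.16, adjusted p = 0.0028) and in embBE VB by 0.82 (adjusted p = 0.0139). Glrb, the beta subunit of the glycine receptor, rose by 0.62 in control VB (adjusted p = 0.0484) and 0.71 in embBE VB (adjusted p = 0.028). In embBE VB the potassium-chloride cotransporter Slc12a4 rose by 0.62 (adjusted p = 0.00953) and Slc12a7 fell by 0.73 (adjusted p = 0.0261). The astrocyte list was higher at P4 than at P0, as given above, and its part in the rise of Slc6a11 was not tested.

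Between the nuclei, 0 of these 25 genes passed in control at P0 and 2 in control at P4, 2 in embBE at P0 and 4 in embBE at P4, all higher in VB, beside 1.56%, 3.22%, 7.48% and 8.43% of all genes. Slc6a11 was higher in VB by 0.95 in control at P4 (adjusted p = 0.000473), 0.57 in embBE at P0 (adjusted p = 0.0158) and 0.84 in embBE at P4 (adjusted p = 0.00136). Glra3, a glycine receptor alpha subunit, was higher by 2.85 in control at P4 (SE 0.56, adjusted p = 0.00414) and by 2.26 in embBE at P4 (adjusted p = 0.0172). Gphn, which encodes the scaffold gephyrin of inhibitory synapses, was higher in embBE by 0.64 at P0 (adjusted p = 0.0361) and by 0.65 at P4 (adjusted p = 0.0416). Stk39, the kinase SPAK that phosphorylates NKCC1 and KCC2, was higher by 0.89 in embBE at P4 (adjusted p = 0.0365).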

How the data were processed

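Expression was measured on 24 arrays, 1 per pooled sample. The log2 values were used as the authors deposited them, after their RMA normalization of 45101 probe sets (64 of them array controls) (its version is not given in the sources used here). RMA equalizes the distributions of the arrays, so differences are relative to the other genes. No probe-level intensities or detection calls were used here, so dim signals could not be set apart from background, and the number of arrays, not a depth, limits the precision. Probe sets were named from the platform annotation, updated through Entrez numbers (34741 matched). The 34945 probe sets with 1 symbol were kept, while 932 had several and 9224 no listed symbol. A gene was represented by its probe set with the highest mean.

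The tests were run in limma 3.58.1 (R 4.3.3, lmFit and eBayes on group means), over the arrays of a nucleus for enucleation and age and over all 24 for VB minus dLGN, there with arrays sharing both label numbers as a block in duplicateCorrelation (consensus correlation -0.0196). P-values were adjusted over 18193 genes by Benjamini-Hochberg, with a threshold of 0.05. For enucleation the study's threshold was used, a fold of at least 1.5 and an unadjusted p under 0.05. The age fit of control VB was tested on simulated VB arrays, with independent noise for each gene and no shared array quality. The fits for enucleation and between the nuclei were not simulated. All members were named, all of their probe sets were fitted, and of the pathway list those with the largest passing differences. The members and lists were chosen with earlier results of these data known. Averages over control and embBE, the covariates for array quality, array weights and the fit without 6 arrays were added after the data were seen. Some related genes are not reported here. Promoters came from RefSeq. Figures were drawn with matplotlib 3.10.9.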

Additional observations from a re-analysis of the deposited data

How the results depend on the processing

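Direction held for all called values of the members under every alternative run. The counts of members that met a threshold moved as follows. For enucleation, the count in VB at P0 and at P4 went from 1 to 0 at each age with the mean of a gene's probe sets, without dim genes, with cyclic loess, with median centring, with all 24 arrays in the fit and a random block for the label numbers together, with the methods' t-test, with either quality covariate, with array weights and without the 6 arrays of low standard deviation. Whether the first label number pairs the arrays could not be decided, since same-numbered pairs of embBE and control arrays were few. Each nucleus had 4 at P0 and 3 at P4. At P4 their deviations from the group means correlated by -0.20 to 0.22 in VB and 0.018 to 0.76 in dLGN. Pairs with another first number ranged at P4 from -0.16 to 0.21 in VB and from -0.73 to 0.58 in dLGN. At P0 the same-numbered pairs ranged from 0.02 to 0.09 in VB and from -0.50 to 0.48 in dLGN. Those with another first number ranged at P0 from -0.24 to 0.20 in VB and from -0.48 to 0.50 in dLGN. With the first number as a replicate block the count in VB at P0 went to 0, that of age in embBE VB from 0 to 1 and that of the VB age average from 3 to 5. Of all genes, 158, 754 and 3688 were called in these comparisons with that block. For age, the count in embBE VB went from 0 to 1 with cyclic loess and to 4 with only the groups compared, and the dLGN average from 1 to 0 with median centring. Of all genes, 742, 3038 and 832 were called in these 3 fits. For VB minus dLGN, embBE at P0 went from 2 to 1 with every probe set and with median centring, and control at P4 from 0 to 2 with the mean of probe sets and to 1 with cyclic loess. Of all genes, 1171 were called in embBE at P0 with median centring. In control at P4 it was 665 with the mean of probe sets and 683 with cyclic loess. With the standard deviation covariate the member counts for age were 2, 3, 2 and 3 (control and embBE VB, control and embBE dLGN). All genes called there were 2413, 1868, 1266 and 2329. For VB minus dLGN in control the member counts were 2 at P0 and 3 at P4, beside 1351 and 1679 of all genes. For the averages they were 5 in VB, 5 in dLGN, 4 for the nuclei at P0 and 2 for the difference of age changes. All genes called for these averages were 4158, 4318, 3881 and 1337. With the actin gap the member counts were 1 and 2 for age in control and embBE VB, 0 for the nuclei in embBE at both ages, and 1 at P0 and 0 at P4 for the averages of the nuclei. All genes called were then 1780 and 1542, 361 and 396, and 1525 and 1155. With array weights the member counts were 4, 4, 4 and 1 for age, beside 7938, 3734, 5101 and 905 of all genes. For the nuclei at P0 and P4 they were 3 and 5 in control and 4 and 5 in embBE. All genes called there were 2070 and 9998 in control and 5417 and 10641 in embBE. The member count was 1 for the enucleation effect between nuclei at P4 and 3 for the control age change between nuclei. All genes called there were 883 and 4166. For the averages the member counts were 8 in VB, 3 in dLGN, 6 and 7 for the nuclei and 3 for the difference of age changes. All genes called for these averages were 8872, 4499, 5232 and 12917, and 3501. Without the 6 arrays the member counts were 2 and 4 for age in VB, 1 and 2 for the nuclei in control, 1 and 4 in embBE, 2 for the dLGN average, 4 for the nuclei at P0 and 1 for the difference of age changes. All genes called in the same order were 1749 and 2480, 928 and 861, 1127 and 5033, 844, 3155 and 252. Without 1 array each, the member counts ranged from 0 to 3 for enucleation in VB at P0 and 0 to 1 at P4. For age they ranged from 0 to 2 in control VB and 0 to 1 in embBE VB. For the nuclei they ranged from 0 to 2 in control at P4, 0 to 5 in embBE at P0 and 1 to 2 at P4. For the averages they ranged from 1 to 4 in VB, 0 to 1 in dLGN, 0 to 2 for the nuclei at P0 and 2 to 5 at P4. For the difference of age changes the range was 0 to 1. Counts over all genes in these fits are not given here, so the ranges cannot be read as particular to the members. Over all genes, calls for enucleation in VB at P0 and P4 went from 133 and 29 to 28 and 6 by the methods' t-test and 14 and 18 with the actin gap. With every probe set fitted, the calls were 314 and 94, counted in probe sets and not in genes. Calls for the average of the nuclei at P4 went from 3520 genes to 1155 with the actin gap and 12917 with array weights. Apart from the fits with fewer arrays or genes, the cause was not tested. Without detection calls, differences of dim probe sets could not be set against background.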

Other observations

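In the averages over control and embBE, 5 of the 25 measured genes of the pathway list rose and 1 fell in VB from P0 to P4, and 2 rose in dLGN (limma, added after the data were seen), beside 13.4% and 4.72% of all genes that passed. Abat, the enzyme that breaks down GABA, rose in VB by 0.97 (SE 0.29, adjusted p = 0.0461), and Gphn by 0.30 (SE 0.09, adjusted p = 0.0461). In dLGN Slc6a11 rose by 0.43 (SE 0.10, adjusted p = 0.0294) and Glrb by 0.45 (SE 0.10, adjusted p = 0.0193).

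At P4, 5 of the 25 genes passed as higher and 3 as lower in VB in the average difference between the nuclei, beside 19.3% of all genes. Gad1, which makes GABA, was lower in VB by 2.12 log2 units (a difference of -2.12, SE 0.73, adjusted p = 0.0474). The GABA receptor subunits Gabrr1 and Gabrq differed by -0.38 (adjusted p = 0.0152) and -0.25 (adjusted p = 0.0497). The markers of GABAergic neurons of neighbouring nuclei, a list that holds Gad1, had group means of 5.67 and 5.78 in VB and 6.22 and 6.24 in dLGN at P4, in control and embBE, and their part in the lower Gad1 of VB was not tested. The glycine transporter Slc6a9 was higher in VB at P0 by 0.33 (SE 0.10, adjusted p = 0.0412), and Gabarap, a receptor trafficking protein, at P4 by 0.59 (SE 0.20, adjusted p = 0.0455).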
